A study of Caenorhabditis elegans with 3 samples.

Results

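The insulin-like peptide genes of Caenorhabditis elegans comprised the 38 protein-coding genes whose Ensembl name begins with ins- and daf-28, 39 of 19973 protein-coding genes on the nuclear chromosomes. They were taken by name, with earlier results of these data already known. Insulin-like peptides are small secreted hormones, made largely by neurons and the intestine, that bind the insulin receptor homologue DAF-2. Receptor activation runs through a PI3-kinase and AKT cascade that keeps the FOXO factor DAF-16 out of the nucleus, and in larvae it helps to decide between growth, L1 arrest and dauer formation. Some of the peptides act as agonists of DAF-2 and others as antagonists. PQM-1 is a zinc-finger transcription factor of the same pathway and is known for the word TGATAAG, the DAF-16-associated element.

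PQM-1 was mapped on chromatin of L1 larvae, the first larval stage, by ChIP-seq, the sequencing of DNA that is immunoprecipitated with a protein, in 3 biological replicates of 1 group. The worms were whole animals of mixed sex of strain OP201, which carries the unc-119(tm4063) mutation on chromosome III and the insertion wgIs201, which expresses PQM-1 fused at its C-terminus to GFP and FLAG. The tagged protein came from a transgene, and peaks from whole larvae do not tell in which tissue a site was bound. The files gave peaks and no reads, and the sequencing depth is unknown. The control used in peak calling was not analysed here.

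Each relaxed list, 1 for the pooled reads and 1 for each replicate, held 30000 peaks that include background peaks, and a strict list of peaks that passed the authors' irreproducible discovery rate threshold (IDR list) held 682. A gene was taken to have a peak when a summit lay from 1000 bp upstream to 200 bp downstream of an annotated 5' end. Its best peak was the highest by the signal column, and rank 1 is the highest of a list. Shares carry a 95% exact binomial interval that covers counting of genes only. Neighbouring genes can share a peak, so the genes are not independent. All positions are on ce11, 1-based.

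PQM-1 peaks stood at the insulin-like peptide genes about as often as at all protein-coding genes, and ins-39 and ins-12 had the peaks of highest pooled rank. Of the 39 genes, 15 had a peak in the pooled list (38.5%, interval 23.4 to 55.4), where 41.9% of all protein-coding genes did. In the highest 5000 pooled peaks 4 had one (10.3%, 2.87 to 24.2), where 11.5% of all genes did, and these were ins-39, ins-12, ins-15 and ins-3. The IDR list held a peak for 2, ins-39 and ins-12 (5.13%, 0.627 to 17.3), where 2.18% of all genes had one. In each of these counts the interval of the insulin-like genes included the share over all genes.

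**Figure D1:**
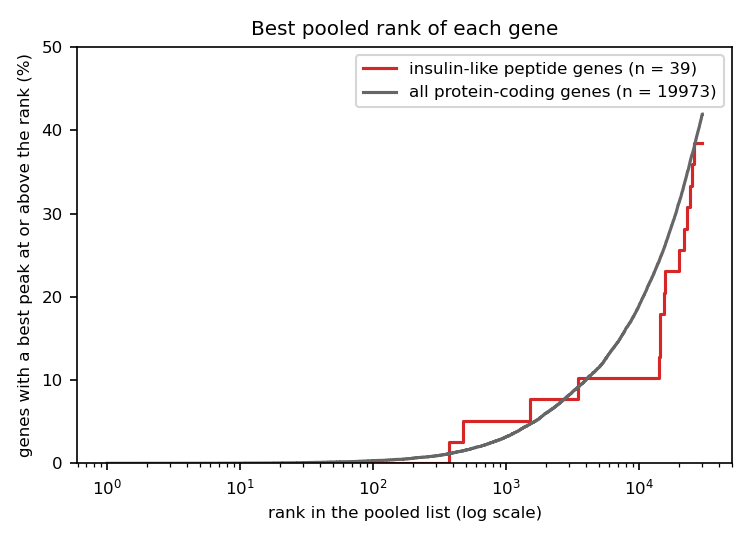
Cumulative share of genes (vertical axis, %) whose best peak stands at or above a given rank of the pooled list (horizontal axis, log scale), for the 39 insulin-like peptide genes and for all 19973 protein-coding genes. The insulin-like genes step up at ranks 374, 475, 1518 and 3490 and not again before 14182, and end at 38.5% against 41.9%.

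The ranks of the insulin-like genes fell into 2 stretches of the pooled list, but not of the replicate lists. In the pooled list the 4 named above ranked 374 to 3490, and the other 11 ranked between 14182 and 25819. Each replicate list had insulin-like genes inside that gap, such as ins-3 at 6420 in replicate 1. Others were ins-16 at 8197 in replicate 2 and ins-2 at 7320 in replicate 3. The share of all genes that ranked in the gap was not counted, so the gap describes the pooled list only. Over the 15 genes with a pooled peak the median rank was 15424, against 11508 over the 8377 protein-coding genes with one. In the replicate lists the median was 15825, 17939 and 13048 for the insulin-like genes, against 11384, 10989 and 13620 for all genes.

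The insulin-like peptide gene with the highest-ranked peak was ins-39. Its peak, chrX:1344883-1345172, had the summit 607 bp upstream of the 5' end, in an intergenic stretch whose other bordering gene, F56C3.3, lay 12743 bp from the summit. The peak ranked 374 in the pooled and IDR lists, with a signal of 41.9 as the authors' caller gave it. In replicates 1, 2 and 3 the best peak ranked 7638, 29 and 6487 (mean 4718 ± 4101, SD, n = 3). Replicate 2 alone placed it high, and the other two placed it outside the 5000 highest peaks. The summits of the replicates lay 147, 21 and 96 bp from the pooled summit, and each replicate peak covered at least 50% of the pooled peak.

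The peak of ins-12 was the other one in the IDR list, at rank 475 and a signal of 39.1. It lay at chrII:5553572-5553861, 900 bp upstream of the 5' end and 1382 bp past the end of C17C3.5, the next gene upstream. Its ranks in replicates 1, 2 and 3 were 2579, 323 and 13048 (mean 5317 ± 6790, SD, n = 3). Replicate 2 was again the highest, and replicate 3 placed it low. The summits agreed closely in position, at 39, 17 and 3 bp from the pooled summit. In replicate 1 a stronger peak, of rank 1130, stood 1153 bp upstream of ins-12, just beyond the window.

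Both genes with a strict call had their highest rank in replicate 2. Among the 682 highest-signal peaks of a replicate, as many as the IDR list holds, replicate 2 had the peaks of ins-39 and ins-12, and replicates 1 and 3 had none for any of the 39 genes. Over the 435 protein-coding genes with an IDR peak, the best peak was among the 682 highest of replicate 1 for 63%, of replicate 2 for 60.7% and of replicate 3 for 33.1%. The pooled list contains the reads of every replicate, so its ranks are no further replicate.

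The next in rank were ins-15 and ins-3. The ins-15 peak (chrII:6745191-6745480) ranked 1518 in the pooled list and 8889, 23936 and 13814 in replicates 1, 2 and 3, so that no replicate alone placed it among its 5000 highest. Its summit lay 588 bp upstream of ins-15 and 99 bp downstream of the 3' end of ins-14, the next gene upstream, on the same strand. The ins-3 peak (chrII:5990960-5991249), 337 bp upstream, ranked 3490 in the pooled list and 6420 and 8096 in replicates 1 and 2. Replicate 3 had none in the window, and the replicate 2 peak covered less than 50% of the pooled peak.

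The sequences around these summits were compared for the GATA-type words known for PQM-1. Each line gives the 50 bp on either side of the pooled summit on the coding strand of the gene, from the ce11 assembly as held by RefSeq, with GATAA or its reverse complement in capitals.
ins-39 (chrX:1344978-1345078, minus strand): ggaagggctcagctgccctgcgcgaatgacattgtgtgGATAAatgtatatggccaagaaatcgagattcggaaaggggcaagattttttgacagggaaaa
ins-12 (chrII:5553667-5553767, plus strand): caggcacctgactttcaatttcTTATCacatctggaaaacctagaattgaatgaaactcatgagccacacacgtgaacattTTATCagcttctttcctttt
ins-15 (chrII:6745286-6745386, minus strand): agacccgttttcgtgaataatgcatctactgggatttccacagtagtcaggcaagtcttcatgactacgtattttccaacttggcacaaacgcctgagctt
ins-3 (chrII:5991055-5991155, minus strand): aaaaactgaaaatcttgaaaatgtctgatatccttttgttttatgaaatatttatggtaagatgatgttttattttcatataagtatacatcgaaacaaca

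Among the 15 insulin-like genes with a pooled peak, only the window of ins-12 held TGATAAG or the shorter TGATAA on either strand (6.67%, interval 0.169 to 31.9). It held TGATAAG centred 26 bp from the summit on the 5' side and a further TGATAA 34 bp on the other side, both read on the strand opposite to the gene. Of the 8377 protein-coding genes with a pooled peak, 7.89% had TGATAAG and 18% had TGATAA at the best one. A peak shared by several genes counts once for each gene. Over the 682 IDR peaks the shares were 38.1% and 62%. The core GATAA, which lies inside TGATAA, was at 4 of the 15 (26.7%, 7.79 to 55.1), namely ins-39, ins-12, ins-23 and ins-35, against 29.1% over all genes and 71.4% of IDR peaks. At ins-39 it stood alone, centred 10 bp from the summit. The windows of ins-15 and ins-3 held none. TGTTTAC, the word bound by DAF-16, was at 1 of 15, ins-35, where 1.73% of all genes with a pooled peak had it. The last 2 words were chosen after the data were seen.

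**Figure D2:**
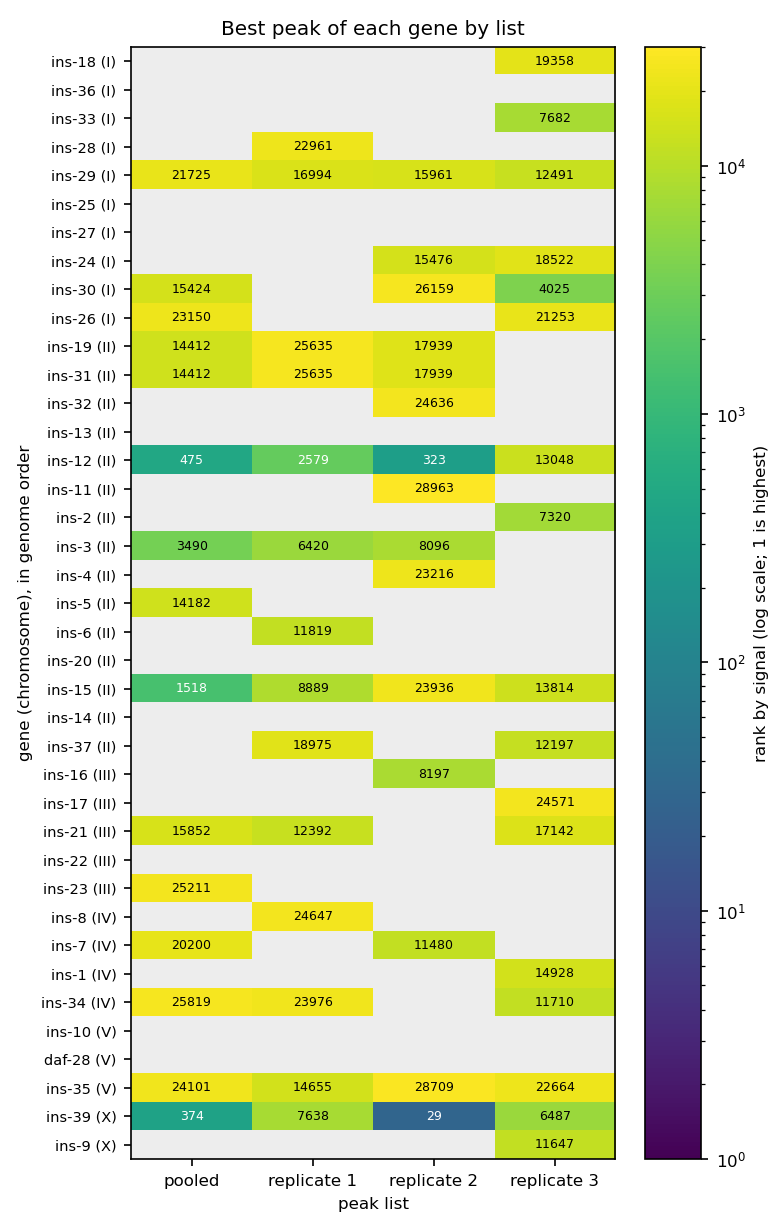
Rank of the best peak in the window of each of the 39 insulin-like peptide genes (rows, with chromosome, in genome order) in the pooled list and the 3 replicate lists (columns). The colour is the rank on a log scale and an empty cell means no peak among 30000. The row of ins-39 holds the darkest cell, rank 29 in replicate 2, and 15 of the 39 rows are filled in the pooled column.

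The replicate lists held peaks at partly different insulin-like genes, to about the extent seen over all genes. In replicates 1, 2 and 3 a peak was present for 14, 15 and 17 of the 39 genes (35.9%, 38.5% and 43.6%), where 43.3%, 42.7% and 35.5% of all genes had one. Of the 39 genes, 11 had a peak in no replicate (28.2%, against 28.4% of all genes), 15 in exactly 1 (38.5%, against 34.2%) and 8 in 2 (20.5%, against 25%). The remaining 5 had one in all 3. They were ins-12, ins-15, ins-29, ins-35 and ins-39 (12.8%, interval 4.30 to 27.4), where 12.4% of all genes had a peak in all 3 lists. The pooled peak was covered over at least 50% of its length in every replicate for 3 genes, ins-12, ins-15 and ins-39 (7.69%, 1.62 to 20.9), where 4.88% of all genes met that rule. At ins-35 the best summits of the replicates were spread over 1009 bp and at ins-29 over 563 bp, against 42 bp at ins-12, 115 bp at ins-15 and 243 bp at ins-39.

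**Figure D3:**
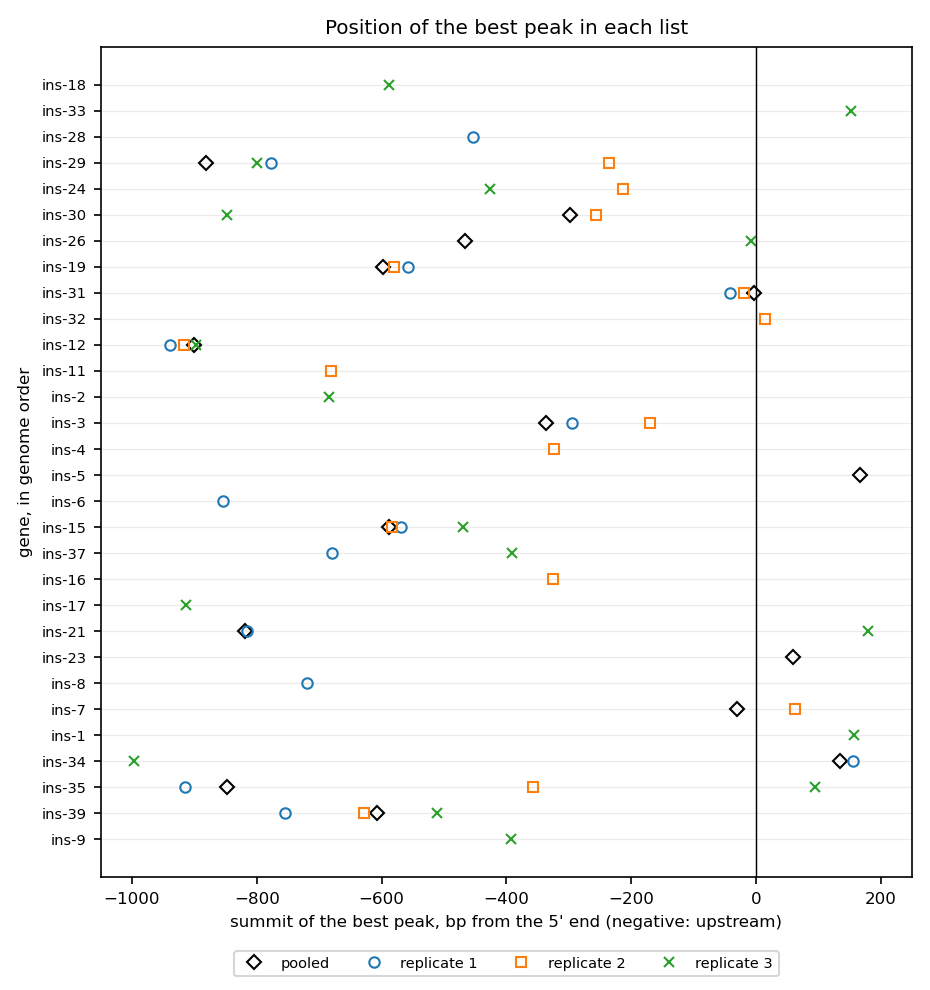
Position of the summit of the best peak in the pooled list and in each replicate list (horizontal axis, bp from the 5' end, negative upstream) for the 30 insulin-like peptide genes with a peak in at least 1 of the 4 lists (rows). At ins-12 and ins-15 the markers of several lists lie together, while at ins-35 and ins-29 the replicate markers, without the pooled one, are spread over 1009 and 563 bp.

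Of 4 genes chosen here as those of DAF-2 agonists, daf-28, ins-4, ins-6 and ins-7, ins-7 alone had a pooled peak. The list is not a full set of agonists, since genes outside it and the list of antagonists below were not sorted by role. The daf-28 gene, whose peptide promotes growth and prevents dauer formation, had no peak in the window in any list, and the nearest pooled summit lay 2254 bp from the gene. In replicate 3 a peak of rank 9896 had its summit inside daf-28, outside the window. At ins-4 a peak was found in replicate 2 alone, at rank 23216 and 323 bp upstream. At ins-6, which acts with daf-28 in the dauer decision, it was found in replicate 1 alone, at rank 11819 and 854 bp upstream. The gene of ins-7, a peptide that takes part in DAF-16-dependent feedback from the intestine, had a peak of rank 20200 in the pooled list, 31 bp upstream of the 5' end, and of rank 11480 in replicate 2. Of these 4 genes none had an IDR peak, and 1, 2 and 0 had a peak in replicates 1, 2 and 3, where 43.3%, 42.7% and 35.5% of all genes had one, a count too small to set against those shares.

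The 4 genes chosen here as those of peptides described as antagonists of DAF-2 had peaks in replicate 3 and none in the pooled list. ins-1, whose precursor has a predicted C peptide as human insulin does, had a peak of rank 14928 in replicate 3, at 157 bp into the gene. ins-17 had one of rank 24571, 914 bp upstream, and ins-18 one of rank 19358, 588 bp upstream, each in replicate 3 alone. ins-37 had peaks of rank 18975 in replicate 1 and 12197 in replicate 3, with the summits 680 and 391 bp upstream. Outside its window, a pooled summit of rank 2296 lay 47 bp from ins-37 and a replicate 1 summit of rank 715 lay 575 bp from it. All 4 genes thus had a replicate 3 peak in the window, but at low ranks. With 4 genes against a background of 35.5% the count describes these genes only.

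Strict peaks also stood close to 3 insulin-like genes on their far side, outside the window. At ins-13 a peak of IDR rank 58 (chrII:5543543-5543832) had its summit 824 bp beyond the 3' end, in no gene's window, with C17C3.24 1903 bp to the other side. This peak ranked 4618, 9 and 57 in replicates 1, 2 and 3, higher than any peak within the windows of the 39 genes in replicates 2 and 3. Its 101 bp on the coding strand of ins-13, chrII:5543638-5543738, held a single GATAA and no TGATAA.
IDR peak past ins-13 (minus strand): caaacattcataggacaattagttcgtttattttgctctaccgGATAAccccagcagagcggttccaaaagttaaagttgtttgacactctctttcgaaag
At ins-1 a peak of IDR rank 321, with ranks of 232, 507 and 291 in replicates 1, 2 and 3, lay 692 bp past the 3' end. It stood 19 bp before the start of F13B12.3 and in the window of that gene. At ins-17 a peak of IDR rank 339, with replicate ranks of 7641, 38 and 677, lay 1254 bp past the 3' end, in the windows of ifet-1, a translation regulator gene, and rps-1, a ribosomal protein gene. These 3 peaks were looked for within 2000 bp of the gene bodies after the data were seen, and which gene each serves is not resolved. The nearest IDR summit lay a median of 32.2 kb from the 39 genes, against 53.1 kb from all protein-coding genes. Neighbouring insulin-like genes often had the same nearest IDR summit, so their distances are not independent. It was that of IDR rank 398 for ins-24 to ins-30, and that of rank 44 for ins-2 to ins-6 and ins-20. The difference between the medians was not tested.

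The insulin-like genes are grouped on the chromosomes. Chromosomes I, II, III, IV, V and X carried 10, 15, 5, 4, 3 and 2 of them, and 22 of the 39 stood in 9 clusters, runs of neighbours with at most 5000 bp between them. Of the 22 clustered genes 12 had a pooled peak, and of the 17 others 3 did, where 41.9% of all genes had one. The 12 include ins-19 and ins-31, which share 1 peak. In replicates 1, 2 and 3 the clustered genes with a peak numbered 9, 11 and 8, and the others 5, 4 and 9. Of all genes 43.3%, 42.7% and 35.5% had one in these lists. The order of the 2 groups turned round in replicate 3, and no test was made. ins-39 stands by itself, while ins-12 and ins-15 are each the partner of another gene, ins-11 and ins-14.

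Only 1 pooled peak was shared by 2 insulin-like genes, so that the 15 genes with a pooled peak had 14 different best peaks. ins-19 and ins-31 are divergent neighbours, 599 bp apart, and the shared summit (chrII:3126893-3127182, rank 14412) lay 3 bp before the 5' end of ins-31 and 597 bp before that of ins-19. The same site was found at ranks 25635 and 17939 in replicates 1 and 2 and not in replicate 3. The ins-7 summit also lay in the window of ZK1251.3. In all, 3 of the 15 genes, ins-19, ins-31 and ins-7, shared their best pooled peak with another protein-coding gene, against 23.9% of all genes with a pooled peak. The best pooled summit lay upstream of the 5' end at 12 of 15 genes, against 84% over all genes with a pooled peak. With downstream summits included, the median position was 466 bp upstream for the 15 genes and 290 bp upstream for all genes with a pooled peak. The upstream spacing of the insulin-like genes was wide, with a median of 1999 bp to the next gene, against 939 bp over all genes.

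The cluster of ins-4, ins-5 and ins-6, which holds 2 of the agonist genes listed above, spans 4.64 kb (chrII:5996366-6001009) with every gene on the plus strand. The pooled list had 2 summits in it, the higher at rank 14182, inside ins-5 and 167 bp past an annotated 5' end. A replicate 3 peak of rank 690, with a signal of 11.5, covered at least 50% of the same site, while replicates 1 and 2 had no peak that did. On one side of the cluster ins-2 had a single peak, of rank 7320 in replicate 3, 685 bp upstream, and on the other side ins-20 had none.

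**Figure D4:**
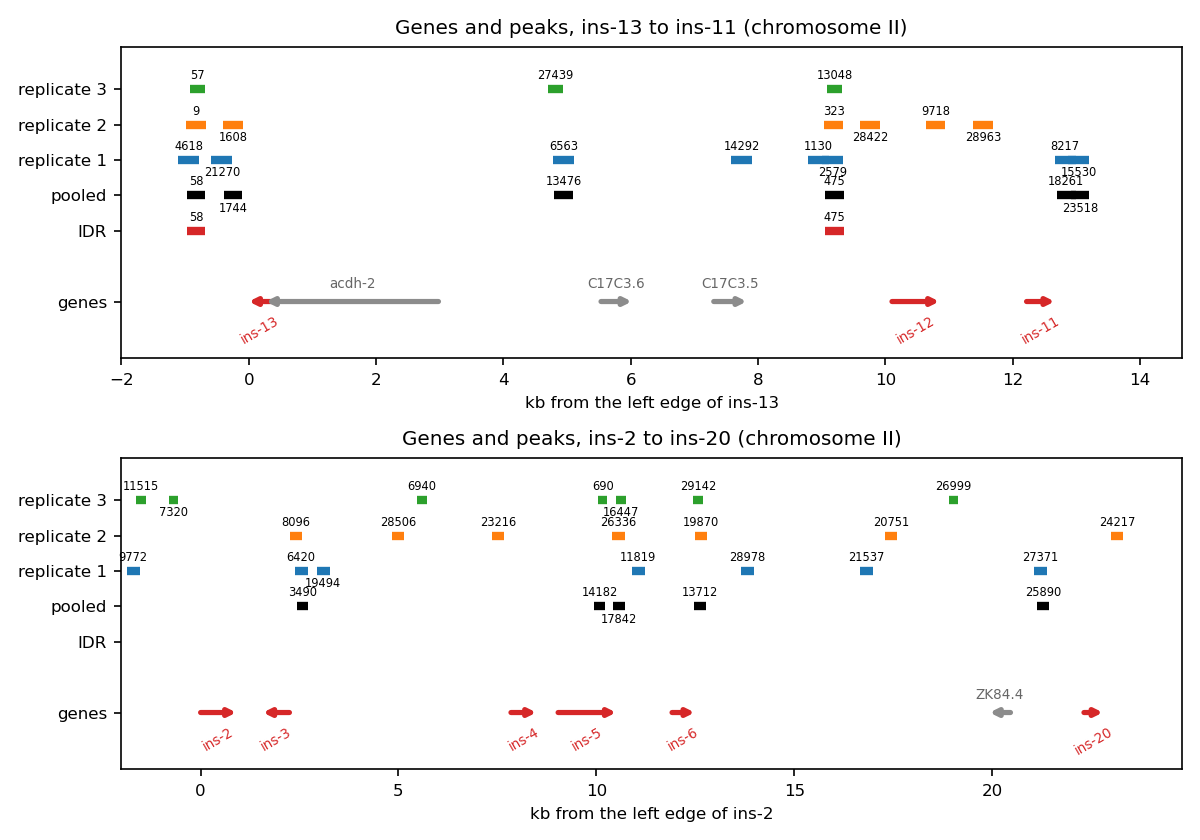
Genes and peaks around ins-13, ins-12 and ins-11 (upper map) and from ins-2 to ins-20 (lower map) on chromosome II. The horizontal axis is the distance in kb from the left edge of the first insulin-like gene, arrows are genes in the direction of transcription (insulin-like peptide genes in red), and bars are peaks of the IDR, pooled and replicate lists with their ranks. IDR peaks of rank 58 and 475 stand in the upper map and none in the lower.

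The other clusters of 3 or more had no IDR peak. The run of ins-21, ins-22 and ins-23, which spans 4.95 kb on chromosome III, had 1 pooled summit within it, of rank 25211, which lay inside ins-23 at 60 bp past its 5' end. ins-21 had a pooled peak of rank 15852, 819 bp upstream, found at nearly the same place in replicate 1 at rank 12392. In replicate 3 its best peak, of rank 17142, lay 180 bp into the gene. ins-22 had no peak in any list.

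The run of ins-27, ins-24, ins-30 and ins-26 spans 10.5 kb on chromosome I, and the pair ins-29 and ins-25 and the single ins-28 lie close by. The pooled list had 4 summits in the run, or 3.79 per 10 kb, against 2.99 over the genome, and replicates 1, 2 and 3 had 2, 3 and 7. The highest pooled summit there, of rank 5860, lay inside ins-24 and in no window. A replicate 2 peak of rank 4686 lay inside ins-30, also in no window. ins-24 had window peaks of rank 15476 and 18522 in replicates 2 and 3. ins-30 had a pooled peak of rank 15424, 298 bp upstream, and ranks of 26159 and 4025 in replicates 2 and 3, the last at another site 848 bp upstream. ins-26 had peaks of rank 23150 in the pooled list and 21253 in replicate 3. ins-29 had peaks in every relaxed list, from 12491 in replicate 3 to 21725 in the pooled list, and its pooled summit lay inside ZC334.13. ins-28 had a window peak in replicate 1 alone, at rank 22961. Every relaxed list also had a summit inside ins-28 but outside its window. It ranked 17220 in the pooled list and 8114, 14188 and 29784 in replicates 1, 2 and 3. ins-25 and ins-27 had no window peak, and a replicate 2 peak of rank 23729 lay inside ins-25.

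Among the remaining genes, ins-33, a gene that the heterochronic factor LIN-14 represses, had a peak of rank 7682 in replicate 3 alone, 153 bp into the gene. ins-11, linked to the response to pathogens, had one of rank 28963 in replicate 2 alone. ins-35 ranked 24101 in the pooled list and 14655, 28709 and 22664 in replicates 1, 2 and 3. ins-34 ranked 25819 in the pooled list and had peaks in replicates 1 and 3, while ins-5 and ins-23 had a pooled peak and none in the window in any replicate. ins-8, ins-9, ins-16 and ins-32 each had a peak in a single replicate, at ranks of 24647, 11647, 8197 and 24636. No list held a window peak for 9 genes, namely daf-28, ins-10, ins-13, ins-14, ins-20, ins-22, ins-25, ins-27 and ins-36 (23.1%, interval 11.1 to 39.3, against 26.8% of all genes).

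The edge of the window decided some of these absences. Just inside it lay the replicate 3 peak of ins-34, 996 bp upstream, and just outside it the replicate 2 peak of ins-22, at 1002 bp, and the pooled peaks of ins-1 and ins-20, at 1032 and 1036 bp, with ranks of 29171, 22251 and 25890. At ins-16 a peak 1384 bp upstream ranked 1246 in replicate 2.

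The genes that act downstream of the peptides or make and release them were compared with the same rule. Of 11 genes of the receptor and its cascade 8 had a pooled peak, of 5 peptide-processing genes 2, and of 3 secretion genes 2. Together 12 of 19 had one (63.2%, interval 38.4 to 83.7, against 41.9% of all genes). Of the 19, 5 were among the 5000 highest (26.3%, 9.15 to 51.2, against 11.5%). An IDR peak stood at 1 of them (5.26%, 0.133 to 26, against 2.18%). daf-2, the receptor gene, ranked 24800 in the pooled list and 4936 in replicate 2 alone. sgk-1, a kinase gene of the cascade, ranked 863 in the pooled list and 1217, 882 and 1660 in replicates 1, 2 and 3. egl-21, which encodes the carboxypeptidase that trims neuropeptide precursors, had the IDR peak, at rank 358 with replicate ranks of 2631, 116 and 15071. Several cascade genes have more annotated 5' ends, and so wider windows, than the insulin-like genes, of which 34 of 39 have a single one.

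The flp and nlp genes, which encode the other large sets of secreted neuropeptides, served as a further comparison. Of 31 flp genes 8 had a pooled peak (25.8%, interval 11.9 to 44.6), 1 was in the top 5000 and none had an IDR peak, which allows a share of up to 11.2%. Of 71 nlp genes 25 had a pooled peak (35.2%, 24.2 to 47.5), 2 were in the top 5000 and none had an IDR peak (up to 5.06%). Among all protein-coding genes 41.9% had a pooled peak, 11.5% were in the top 5000 and 2.18% had an IDR peak. The intervals of the 3 families overlapped in each of these counts.

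**Figure D5:**
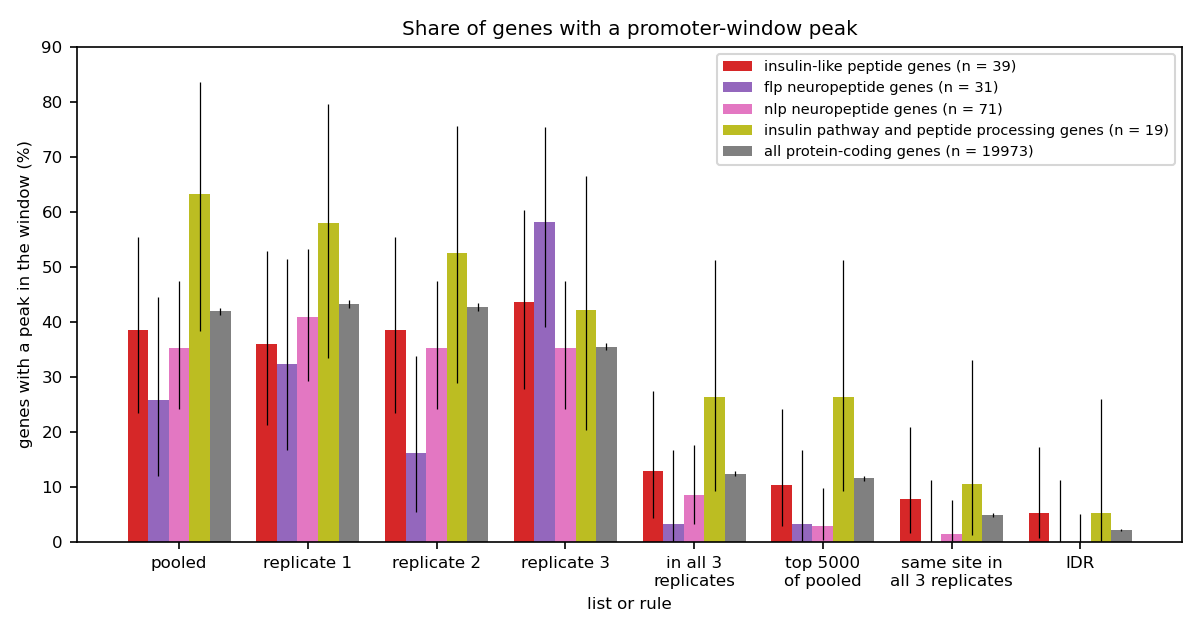
Share of genes with a peak in the window (vertical axis, %) in the pooled, replicate and IDR lists and under the stricter rules, for the 39 insulin-like peptide genes, 31 flp genes, 71 nlp genes, 19 insulin pathway and peptide processing genes and all 19973 protein-coding genes. Error bars are 95% exact binomial intervals over genes, and those of the insulin-like genes reach across the share of all genes under every rule shown.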

How the data were processed

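The deposited files were lists of ChIP-seq peaks from 3 replicates. The authors called peaks against a control for every replicate and for the replicates pooled, and derived the IDR list, per the deposited README files. The sources used here do not name the caller, the aligner or the IDR threshold. Column 7, the signal as the authors deposited it, differs in scale between lists and only its ranks were compared. Column 9 of the deposited lists is a score with negative values in the pooled list and served as an alternative ranking. Depth is unknown.

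Summits on ce11 were matched to protein-coding 5' ends of Ensembl release 115 on WBcel235, the same assembly, with Python 3.11.15, pandas 2.3.3 and scipy 1.17.1. Tied signals share a rank. Words were searched on both strands, whole, within 50 bp of the summit. The members and gene lists were chosen with earlier results of these data known. Every member was named, with values in all lists for those with an IDR peak, the 10 of highest pooled rank, clusters of 3 or more and 10 genes of known role. With 1 group no test between conditions was possible. The matching, word and overlap functions were tested on simulated data. The lists on ce10 were not used.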

Additional observations from a re-analysis of the deposited data

How the results depend on the processing

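No paired analysis was possible because the libraries form a single group. Of 46 recomputed values, 27 kept within the tolerance, 1.5 times for a count, and 19 did not. The upstream width of the window mattered most. With 500 bp, 8 of 39 genes had a pooled peak (30.5% of all genes) and 1 was in the top 5000 (8.5%). At that width 0 had an IDR peak (1.67% of all genes), a peak in all 3 replicates (6.73%) or a site covered in every replicate (3.54%). Also 0 had a shared peak (15.6% of all genes with a pooled peak) or TGATAA (18.8%). The narrower window lost the pooled peaks of ins-12, ins-15, ins-19, ins-21, ins-29, ins-35 and ins-39. With 2000 bp, 8 genes had a peak in all 3 replicates (25% of all genes) and 7 shared one (36.9% of all genes with a pooled peak). With the nearest gene alone, 3 had a peak in all 3 replicates (9.7% of all genes). Leaving out 1 replicate gave 7 to 8 genes with a peak in both others (18.8% to 24.4% of all genes). It gave 4 to 6 covered in both (7.73% to 13%), where fewer lists had to hold a peak. Coverage of 75% left 1 gene (2.48% of all genes), and TGATAA within 25 bp left 0% (10% of all genes with a pooled peak).

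Alternatives added after seeing the data gave 9 genes with a pooled peak among the 27 with at least 1000 bp to the next gene upstream (33.3%, against 40.6% of all such genes). They also gave 1, 2 and 1 genes in the top 5000 of replicates 1, 2 and 3 (11.9%, 12.1% and 7.24% of all genes). The top 5000 of the pooled list held 4 (11.5% of all genes). ins-39, ins-12, ins-15 and ins-3 had pooled ranks of 1, 498, 1515 and 3485 by column 9, where the highest score is tied among many peaks. Ranks of the weaker peaks moved in both directions, that of ins-30 to 29402 from 15424 and that of ins-34 to 12763 from 25819, while ins-7 had 20062 in place of 20200. The depth of the libraries is unknown, and what it limits could not be tested.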
